A study of Mus musculus with 8 samples.

Results

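Proteasome subunit genes were examined for CTCF binding in cultured mouse cortical neurons, NMDA-stimulated and control. The set holds every protein-coding gene whose symbol starts with Psm, a letter from a to g and a number, which gave 51 of 21887 protein-coding genes in RefSeq's GRCm38.p6 annotation. It contains 19 subunits of the catalytic core, 6 ATPases, 3 non-ATPase subunits of the base and 8 lid subunits. A further 6 activators or inhibitors and 7 assembly chaperones belong to it. The other 2 genes, Psmc3ip and Psme3ip1, match by name and belong to none of these classes. Subunits with other names, such as Adrm1 of the base and Sem1 of the lid, are not in the set. A region was assigned to a gene when its summit, the base of highest signal, lay in the gene span or within 1 kb of either side. The genes were chosen by name, their regions were selected on the position of the summit, and the set was taken up with its CTCF regions already known, so the counts of regions are descriptions.

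The NMDA cultures were wild-type (WT) neurons from Swiss-Webster embryos of embryonic day 16 (E16), grown to day 13 in vitro and given 50 µM NMDA, which activates a type of glutamate receptor, for 10 minutes before 50 minutes in medium without it. The control cultures were WT neurons of the same strain, embryonic day and day in vitro, with control as their label. Cells were fixed with 1% formaldehyde. The growth protocol given for all samples also names etoposide, a topoisomerase inhibitor, which no sample carries as its treatment. The series holds 8 samples: 2 NMDA ChIP, 2 NMDA input, 2 control ChIP and 2 control input, where ChIP is chromatin immunoprecipitation. The binding data are 1 list of reproducible regions per condition, built by the authors over both ChIP replicates, so a difference between conditions could not be set against replicate error and no test of one is given. Dissociated cortex also yields glia, and the cell type label could not be checked, since region lists hold no marker levels.

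The proteasome degrades proteins tagged with ubiquitin. Its barrel-shaped core is made of alpha rings, which control entry, and beta rings, which hold the proteolytic sites. A regulatory cap on each end consists of a base, whose ATPases unfold substrates, and a lid, which removes ubiquitin. Neurons use it to turn over synaptic proteins, and its subunits are known to be made together under the transcription factor Nfe2l1. CTCF, a DNA-binding factor with a row of zinc fingers, recognises a long motif and, with cohesin, anchors chromatin loops. Many of its sites lie near gene starts.

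Promoters of some members with a region at the start, mostly of high rank or in 1 list alone, are printed here. They show where matches to the CTCF motif stand from a summit, which is not near it in every promoter. All of those printed hold a match to the form given below, so they do not stand for the members as a whole. Psmd1 is not printed, although its start region ranked above that of Psmd11, and its promoter holds no match. Psmb10, Psme2 and Psmg3, which had a list-only region at the start, are not printed either and hold no match. They were read from RefSeq GRCm38.p6, 5′ to 3′ on the strand of the gene, from 250 bases before to 50 bases after the start. Capitals mark matches, on either strand, to a wide form of the core of the CTCF motif, which is CC, any 3 bases, AG, any 2 bases, G, any base and C. The Psmd6 window is chr14:14120896-14121195 on the minus strand, Psmc6 is chr14:45329574-45329873 on the plus strand and Psmd11 is chr11:80428365-80428664 on the plus strand. The Psmc4 window is chr7:28050043-28050342, Psmc3ip is chr11:101095386-101095685, Psmg1 is chr16:95990911-95991210 and Psmf1 is chr2:151741261-151741560, all on the minus strand.
Psmd6: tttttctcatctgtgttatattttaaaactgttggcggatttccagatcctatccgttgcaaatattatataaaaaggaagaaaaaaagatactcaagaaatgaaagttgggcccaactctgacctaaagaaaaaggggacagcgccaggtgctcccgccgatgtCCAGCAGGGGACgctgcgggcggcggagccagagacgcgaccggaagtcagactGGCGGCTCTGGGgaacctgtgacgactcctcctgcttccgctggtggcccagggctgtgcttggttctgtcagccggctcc
Psmc4: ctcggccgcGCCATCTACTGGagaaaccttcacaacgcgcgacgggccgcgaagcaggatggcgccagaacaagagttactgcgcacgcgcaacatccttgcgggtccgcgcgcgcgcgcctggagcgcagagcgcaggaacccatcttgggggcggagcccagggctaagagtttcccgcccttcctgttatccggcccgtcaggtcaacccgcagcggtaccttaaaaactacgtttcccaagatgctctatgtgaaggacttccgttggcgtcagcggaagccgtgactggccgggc
Psmc6: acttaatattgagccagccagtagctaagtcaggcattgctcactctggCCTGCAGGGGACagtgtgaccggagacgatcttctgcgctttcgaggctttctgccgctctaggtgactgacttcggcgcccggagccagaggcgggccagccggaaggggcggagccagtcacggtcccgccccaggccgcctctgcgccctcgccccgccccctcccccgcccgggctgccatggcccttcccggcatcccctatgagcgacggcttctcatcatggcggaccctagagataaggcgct
Psmd11: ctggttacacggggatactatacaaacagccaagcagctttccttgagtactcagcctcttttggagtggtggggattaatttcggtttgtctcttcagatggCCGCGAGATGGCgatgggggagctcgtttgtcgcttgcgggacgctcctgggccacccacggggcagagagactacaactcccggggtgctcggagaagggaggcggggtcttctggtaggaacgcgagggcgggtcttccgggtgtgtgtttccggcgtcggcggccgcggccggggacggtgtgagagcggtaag
Psmc3ip: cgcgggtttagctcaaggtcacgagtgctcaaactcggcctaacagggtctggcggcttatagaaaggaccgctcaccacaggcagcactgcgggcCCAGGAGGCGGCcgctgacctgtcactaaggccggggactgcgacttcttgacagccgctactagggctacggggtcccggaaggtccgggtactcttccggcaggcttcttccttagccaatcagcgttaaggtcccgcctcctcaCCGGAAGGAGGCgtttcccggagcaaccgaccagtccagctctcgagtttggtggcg
Psmg1: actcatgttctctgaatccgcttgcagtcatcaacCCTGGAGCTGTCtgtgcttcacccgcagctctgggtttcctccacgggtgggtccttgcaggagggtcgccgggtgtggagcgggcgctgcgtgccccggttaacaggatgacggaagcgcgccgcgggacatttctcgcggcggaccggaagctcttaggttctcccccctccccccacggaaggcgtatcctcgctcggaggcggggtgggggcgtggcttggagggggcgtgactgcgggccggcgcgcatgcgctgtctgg
Psmf1: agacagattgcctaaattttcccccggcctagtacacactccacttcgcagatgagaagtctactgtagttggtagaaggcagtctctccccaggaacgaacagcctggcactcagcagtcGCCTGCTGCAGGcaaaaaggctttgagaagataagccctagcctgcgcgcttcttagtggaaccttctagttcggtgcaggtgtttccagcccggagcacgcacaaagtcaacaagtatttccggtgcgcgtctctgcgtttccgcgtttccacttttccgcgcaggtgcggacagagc

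In Psmd6 the match CCAGCAGGGGAC was centred 12 bp from the NMDA summit and 10 bp from the control summit, and GGCGGCTCTGGG, a match on the other strand, lay 66 bp and 64 bp from them. The Psmc6 match CCTGCAGGGGAC lay 14 bp from the NMDA summit and 2 bp from the control summit. In Psmd11 CCGCGAGATGGC lay 14 bp and 12 bp from the NMDA and control summits, and in Psmc4 GCCATCTACTGG, on the other strand, lay 24 bp and 34 bp from them. The promoter windows of 6 members held an NMDA summit, and these 4 had a match close to it. Psma7 and Psmd8, the other 2, had none. The same share over all promoters that held a summit was not counted, so this count has no background. Psmd11 and Psmc4 also match a narrow form with GGC as its last letters, while Psmd6 and Psmc6 match the wide form alone, which was added after values were seen. The nearer match of Psmc3ip, CCAGGAGGCGGC, lay 128 bp from the NMDA summit and 178 bp from the control summit. Psmg1 had a region at its start in the control list alone, and its match CCTGGAGCTGTC was centred 0 bp from that summit. This match is also to the wide form alone. Psmf1 had one in the NMDA list alone, and its match GCCTGCTGCAGG lay 250 bp from the summit.

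A RefSeq promoter was found for 43 of the 51 members and for 17492 protein-coding genes. The wide form, searched on both strands, occurred in 17 of the 43 member promoters (39.5%) and in 27.4% of all promoters. It was added after values were seen and takes in Psmd6 and Psmc6, so its shares in members are no independent comparison. The narrow form, which the wide one includes, occurred in 8 of 43 (18.6%) and in 11.3% of all promoters. Among promoters with a region within 1 kb of the start in either list, the wide form was in 8 of 16 for the members (50.0%) and in 40.0% for all genes, and the narrow form in 5 of 16 and in 20.6%. A stricter form of the narrow one, with CCA as its first letters, was found in Psmc3ip and Psmc4, 2 of 43, against 2.75% of all promoters. The letters TGACNNNGC, from the antioxidant response element that Nfe2l1 binds, were in 6 of 43 (14.0%), namely Psmb5, Psmb6, Psmc6, Psmd9, Psmd12 and Psme4, and in 14.8% of all promoters. CCAAT was in 16 of 43 (37.2%) and in 42.3% of all promoters. A match is a description of these windows and is not a measured site.

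The lists held 36186 regions for NMDA and 33815 for control on assembled chromosomes. Of these, 84.5% of the NMDA regions and 90.8% of the control regions touched a region of the other list with 1 bp or more and are called shared. Each region's signal is the authors' −log10 p-value, with a list median of 90.9 for NMDA and 166 for control. It grows with sequencing depth, which is unknown, so signals were not compared between lists. A region's percentile is the share of its own list with a lower signal, and a difference in percentile is a difference in rank.

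CTCF regions lay at 29 of the 51 proteasome genes in at least 1 list (56.9%, 95% Wilson interval 43.3% to 69.5%), while 55.4% of all protein-coding genes had one. The NMDA list had regions at 27 members (52.9%, 39.5% to 65.9%), against 52.7% of all genes, and the control list at 24 (47.1%, 34.1% to 60.5%), against 51.4%. A shared region was present at 22 members (43.1%), against 48.3% of all genes. With the 1 kb margin the shares of the members were close to those of all genes, and this depended on the margin. In the gene span alone, 16 members had a region in the NMDA list (31.4%), against 45.6% of all genes, and 11 in the control list (21.6%), against 44.3%. With 5 kb on either side the counts were 38 for NMDA (74.5%), against 61.3% of all genes, and 36 for control (70.6%), against 59.9%. The members thus lay below all genes without a margin and above them with the wider one, in both lists. Their median span was 11567 bp, and that of all protein-coding genes 17169 bp, and the part of gene length in these shares was not tested. Members with a region had a median span of 11567 bp and members without one 11545 bp. The Wilson intervals cover counting error over genes only.

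NMDA-only regions lay at 6 members (11.8%), namely Psma6, Psmb3, Psmd7, Psmd11, Psme2 and Psmf1, against 14.0% of all genes. Control-only regions lay at 3 members (5.88%), namely Psmb10, Psmg1 and Psmg3, against 9.28% of all genes. Of the 6, Psmd7 and Psmd11 belong to the lid and Psme2 and Psmf1 to the activators and inhibitors. No ATPase gene had a region in 1 list alone.

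By the part of the complex, a region in either list was found at 8 of 19 core genes (42.1%, 23.1% to 63.7%), 3 of 6 ATPase genes (50.0%, 18.8% to 81.2%) and 5 of 8 lid genes (62.5%, 30.6% to 86.3%). The intervals overlap widely, and each holds the 55.4% of all genes. Within the core, 5 of 8 alpha genes had a region, against 2 of 7 constitutive beta genes and 1 of the 4 inducible or tissue-specific beta genes. In the NMDA list the counts were 7 core, 3 ATPase and 5 lid genes, and in the control list they were 6, 3 and 4. Activators and inhibitors had regions at 5 of 6 genes in the NMDA list and at 3 of 6 in the control list. The assembly chaperones had them at 3 of 7 and 4 of 7.

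**Figure D1:**
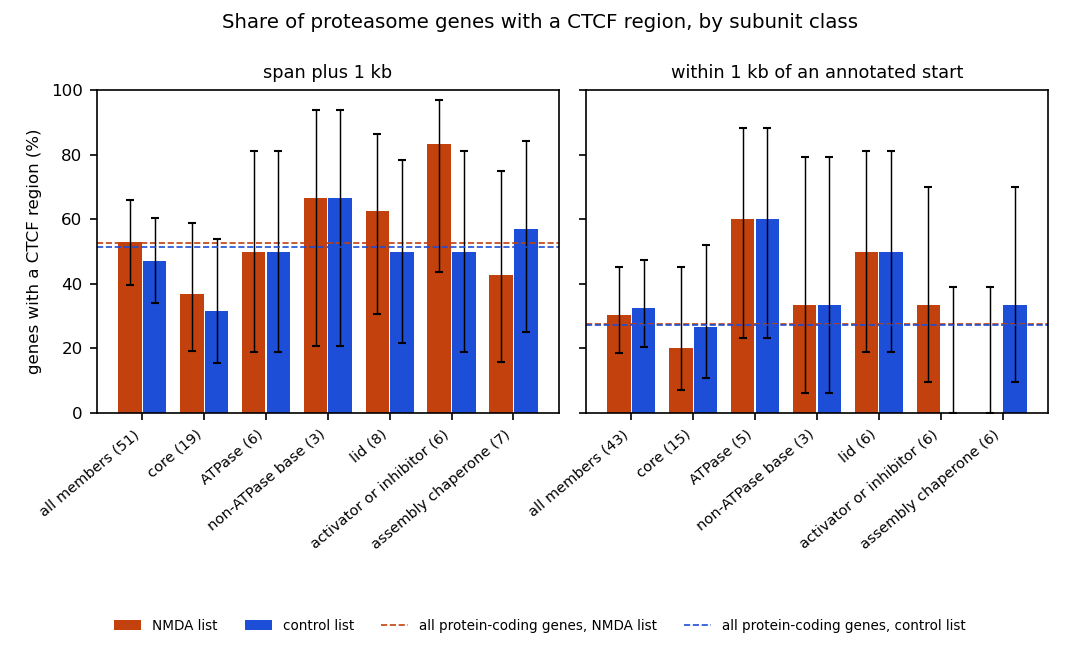
Percentage of genes with a CTCF region in the NMDA list (left in each pair) and in the control list (right) by part of the proteasome, in the span plus 1 kb and within 1 kb of a start, with 95% Wilson intervals that cover counting error only and dashed lines for all protein-coding genes. The intervals of core, ATPase and lid genes overlap, and the shares of all 51 members, 52.9% and 47.1%, lie near those of all genes, 52.7% and 51.4%.

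The positions of the regions are given by class as counts, with no test between classes. They were not counted over the regions of all genes. Psmb7 alone held 4 of the core regions inside a gene in each list. In the NMDA list all 3 ATPase regions had their summit within 1 kb of the gene start. Of 11 core regions, 3 lay at the start, 1 at an end of the span and 7 inside the gene. Of 9 lid regions, 3 lay at the start, 2 at an end and 4 inside. Those at an end were at Psmd3 and Psmd7, whose strand is not known, so they could not be counted at a start. In the control list these positions were 3, 0 and 0 for ATPase genes, 4, 2 and 5 for core genes and 3, 1 and 1 for lid genes. Within 1 kb of the start, 16 of the 43 members with a RefSeq promoter had a region in either list (37.2%, 24.4% to 52.1%), against 31.3% of genes with one. For NMDA this was 13 of 43 (30.2%) against 27.5%, and for control 14 of 43 (32.6%) against 27.2%. The NMDA-only regions at a start were at 2 members, Psme2 and Psmf1, where the background was 4.10%, and the control-only ones at 3, where it was 3.53%.

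**Figure D2:**
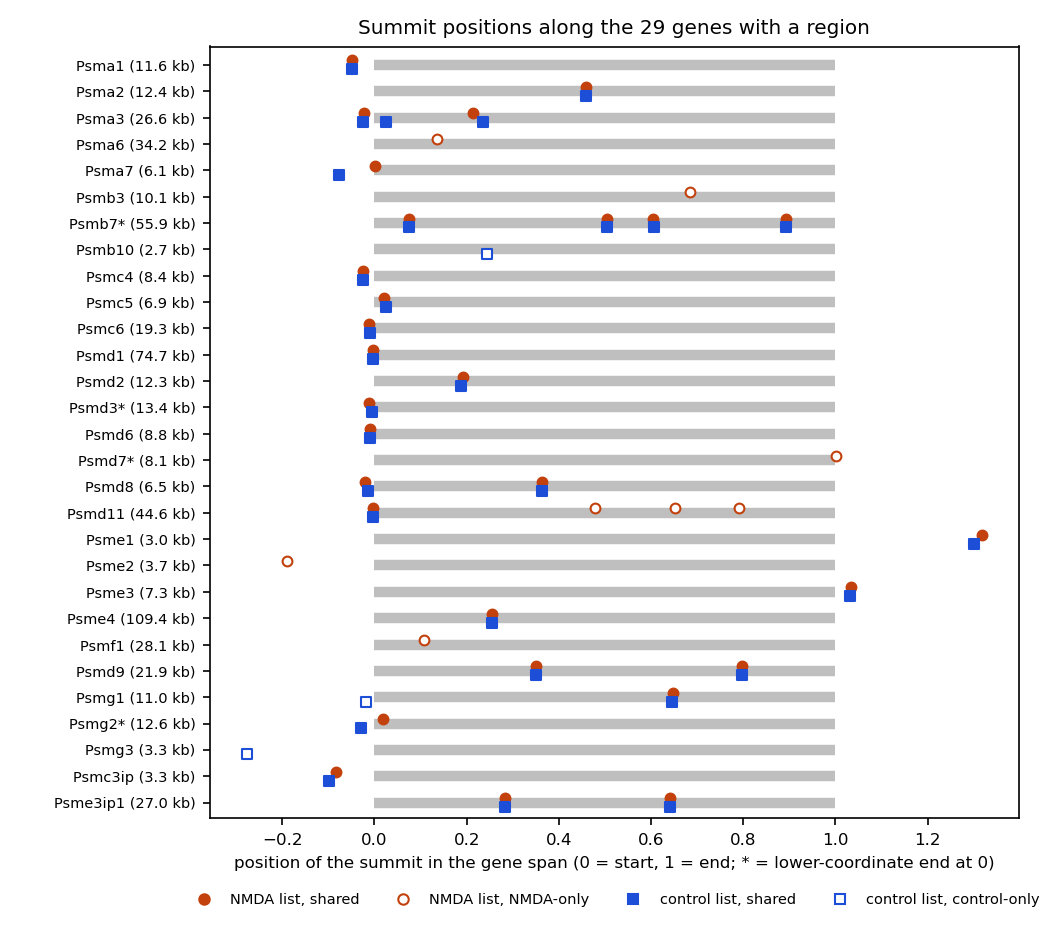
Position of each region's summit along its gene, from start to end of the span with flanks, for the NMDA list (circles, above) and the control list (squares, below), as a fraction of the gene span. Genes with an asterisk have no known strand. The 3 ATPase summits of each list stand at the start, and core summits are spread along the genes, with 4 in each list from Psmb7 alone. Positions were not counted over the regions of all genes, and classes were not compared by a test.

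The lid gene Psmd6 carried the region of highest rank of the whole set. Psmd6 encodes a structural lid subunit. In NMDA cultures the region at chr14:14120358-14121787 had a signal of 1023, rank 74 of the list and percentile 99.8. In control cultures the region at chr14:14120201-14121867 had a signal of 1824, rank 53 and percentile 99.8. The summits were 1 bp apart and lay 91 bp (NMDA) and 90 bp (control) before the gene start. The 2 NMDA replicate columns gave 527 and 496, so both contributed almost equally.

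Other lid genes had regions of middle or low rank. Psmd11, a lid subunit that helps to hold the cap on the core, had a shared region at its start with a percentile of 71.0 for NMDA (signal 174, replicate columns 101 and 72.2) and 80.4 for control (signal 362). The summits were 2 bp apart. Inside Psmd11 the NMDA list had 3 more regions without a control counterpart, at chr11:80449626-80450324, chr11:80457340-80458210 and chr11:80463538-80464202. Their percentiles were 11.5, 21.4 and 27.3 and their signals 27.8, 37.1 and 43.9, all in the weaker part of the list. Psmd11 was the member with the most list-only regions, and their nearest control summit was between 10428 bp and 21510 bp away.

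Psmd7, the lid subunit that pairs with the deubiquitinase Psmd14, had the NMDA-only region of highest rank. The region at chr8:107587812-107589241 had a signal of 61.7 and percentile 38.1, with replicate columns of 24.5 and 37.1. Its summit lay 13 bp from an end of the gene span, and the nearest control summit was 11560 bp away. This gene's strand was not in the tables used here, so the end was not assigned to its start. Psmd8, a small lid subunit, had 2 shared regions, inside the gene with percentile 60.6 for NMDA and 47.4 for control, and at the start with 55.3 and 49.2. Psmd3, another lid subunit, had a weak region near an end, with percentile 8.54 for NMDA and 20.2 for control. The other lid genes, Psmd12, Psmd13 and Psmd14, had none in either list.

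The ATPase ring had regions at the starts of 3 of its 6 genes, Psmc4 and Psmc6 with a high rank and Psmc5 with a middle one. Psmc4 encodes one of the ATPases that unfold substrates. Its region at chr7:28049836-28051080 had a signal of 521, rank 1179, percentile 96.7 and replicate columns of 264 and 257 in NMDA cultures, against a signal of 906, rank 944 and percentile 97.2 in control cultures. The summits lay 212 bp (NMDA) and 202 bp (control) before the start. Psmc6, another ATPase of the ring, had a region at chr14:45328772-45330372 with a signal of 418, percentile 94.0 and replicate columns of 158 and 260 for NMDA, against a signal of 1030 and percentile 98.0 for control. Psmc5, also of the ring, had a region of middle rank 142 bp into the gene, with a signal of 97.9, percentile 52.3 and replicate columns of 60.2 and 37.7 for NMDA, against a signal of 285 and percentile 71.4 for control. That summit also lay within 1 kb of an end of Ftsj3. Psmc1, Psmc2 and Psmc3 had no region in either list.

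The base subunits that form its scaffold had regions at 2 of 3 genes. Psmd1, which anchors ubiquitin receptors, had a region at its start with percentile 78.1 for NMDA (signal 216, replicate columns 65.7 and 150) and 81.2 for control (signal 370). Psmd2, also a scaffold of the base, had a region inside the gene with percentile 24.9 for NMDA and 19.9 for control. Its replicate columns of 9.14 and 31.8 were far apart. The ubiquitin receptor gene Psmd4 had no region in either list.

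Core genes had regions of high rank at a pair of alpha genes. Psma2, an alpha ring subunit, had a region inside the gene at chr13:14617717-14620175 with percentile 93.4 for NMDA (signal 401, replicate columns 117 and 284) and 93.4 for control (signal 604). Psma3, another alpha subunit, had an NMDA region at chr12:70968007-70970814 with a signal of 314, percentile 88.6 and replicate columns of 192 and 122. That region lay over 2 control regions, with percentiles 84.5 and 70.8, and its summit was 18 bp from the summit of the stronger one. A second Psma3 region near the start had percentile 18 for NMDA and 19.1 for control.

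The remaining core regions had lower ranks. Psmb7, which carries the trypsin-like activity, had 4 shared regions inside its long span, with percentiles of 74.4, 68.3, 57.9 and 39.0 for NMDA against 84.0, 63.1, 52.0 and 52.6 for control. Psma1, an alpha subunit, had percentile 37.1 for NMDA and 30.9 for control at its start. Psma7, also of the alpha ring, had 17.5 and 8.49 with summits 481 bp apart. Psma6, another alpha subunit, had an NMDA-only region at chr12:55388672-55389436 with a signal of 42.5, percentile 26.2 and replicate columns of 17.7 and 24.8, and the nearest control summit was 33800 bp away. Psmb3, a structural beta subunit, had one at chr11:97709939-97710889 with a signal of 28.2, percentile 12.1 and replicate columns of 12.4 and 15.8.

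Of the 4 immunoproteasome and thymus genes, 1 had a CTCF region in either list (25%, 4.56% to 69.9%), an interval that holds the 55.4% of all genes. Psmb10, the inducible subunit that replaces Psmb7, had a control-only region at chr8:105936876-105938607 with a signal of 43.5 and percentile 5.27. Psmb8, Psmb9 and Psmb11 had none. Psmb5, with the chymotrypsin-like activity, and Psmb6, with the caspase-like activity, also had none, and neither did Psma8, the alpha subunit of testis.

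Among the activators, Psme3, which forms a nuclear activator ring, had a strong region 241 bp past its span at chr11:101322358-101324817. Its percentile was 95.8 for NMDA (signal 475, replicate columns 225 and 251) and 93.5 for control (signal 612), with summits 3 bp apart. That region also lay within 1 kb of an end of the neighbour Aoc2. Psme4, an activator of the proteasome linked to histone turnover, had percentile 57.6 for NMDA and 48.0 for control inside the gene. Psme1, a subunit of the interferon-inducible activator, had 44.1 and 30.4.

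Psme2, the partner of Psme1, had an NMDA-only region at chr14:55591167-55592535 with a signal of 22.9, percentile 5.08 and replicate columns of 13 and 9.96. Psmf1, a proteasome inhibitor and adaptor, had one at chr2:151740878-151741400 with a signal of 21.9, percentile 3.76 and replicate columns of 12.9 and 9.02. Both regions were among the weakest of the NMDA list. The Psme2 summit lay 694 bp before its start and the Psmf1 summit 126 bp into the gene. The Psme2 summit also lay within 1 kb of an end of the neighbour Rnf31.

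Assembly chaperones help to build the core or the base. Psmd9, a chaperone of the base, had 2 shared regions inside the gene. The stronger had percentile 78.3 for NMDA and 74.6 for control, and the weaker 56.7 for NMDA and 33.2 for control. Psmg2, a core chaperone, had a region near an end with 57.5 for NMDA and 70.3 for control, with summits 625 bp apart. Psmg1, the partner of Psmg2, had a shared region inside the gene with 35.8 for NMDA and 30.8 for control. At its start it had a control-only region, chr16:95990162-95992108, with a signal of 84.4 and percentile 26.4, whose nearest NMDA summit was 7347 bp away. The summit of that region also lay within 1 kb of an end of the neighbour Brwd1. Psmg3, another core chaperone, had a control-only region at chr5:139827497-139827999 with a signal of 73.4 and percentile 21.8. Psmd5, Psmd10 and Psmg4, which complete the chaperones, had none.

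The 2 genes that match by name but belong to none of the classes had shared regions. Psmc3ip encodes a factor of meiotic recombination. Its region at chr11:101094898-101096712 had a signal of 614, percentile 98.1 and replicate columns of 267 and 347 in NMDA cultures, against a signal of 574 and percentile 92.5 in control cultures. It lay 276 bp (NMDA) and 327 bp (control) before the start and near an end of the neighbour Retreg3. Psme3ip1, which encodes a protein that binds Psme3, had percentiles of 60.8 and 49.0 for NMDA against 62.0 and 33.9 for control.

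**Figure D3:**
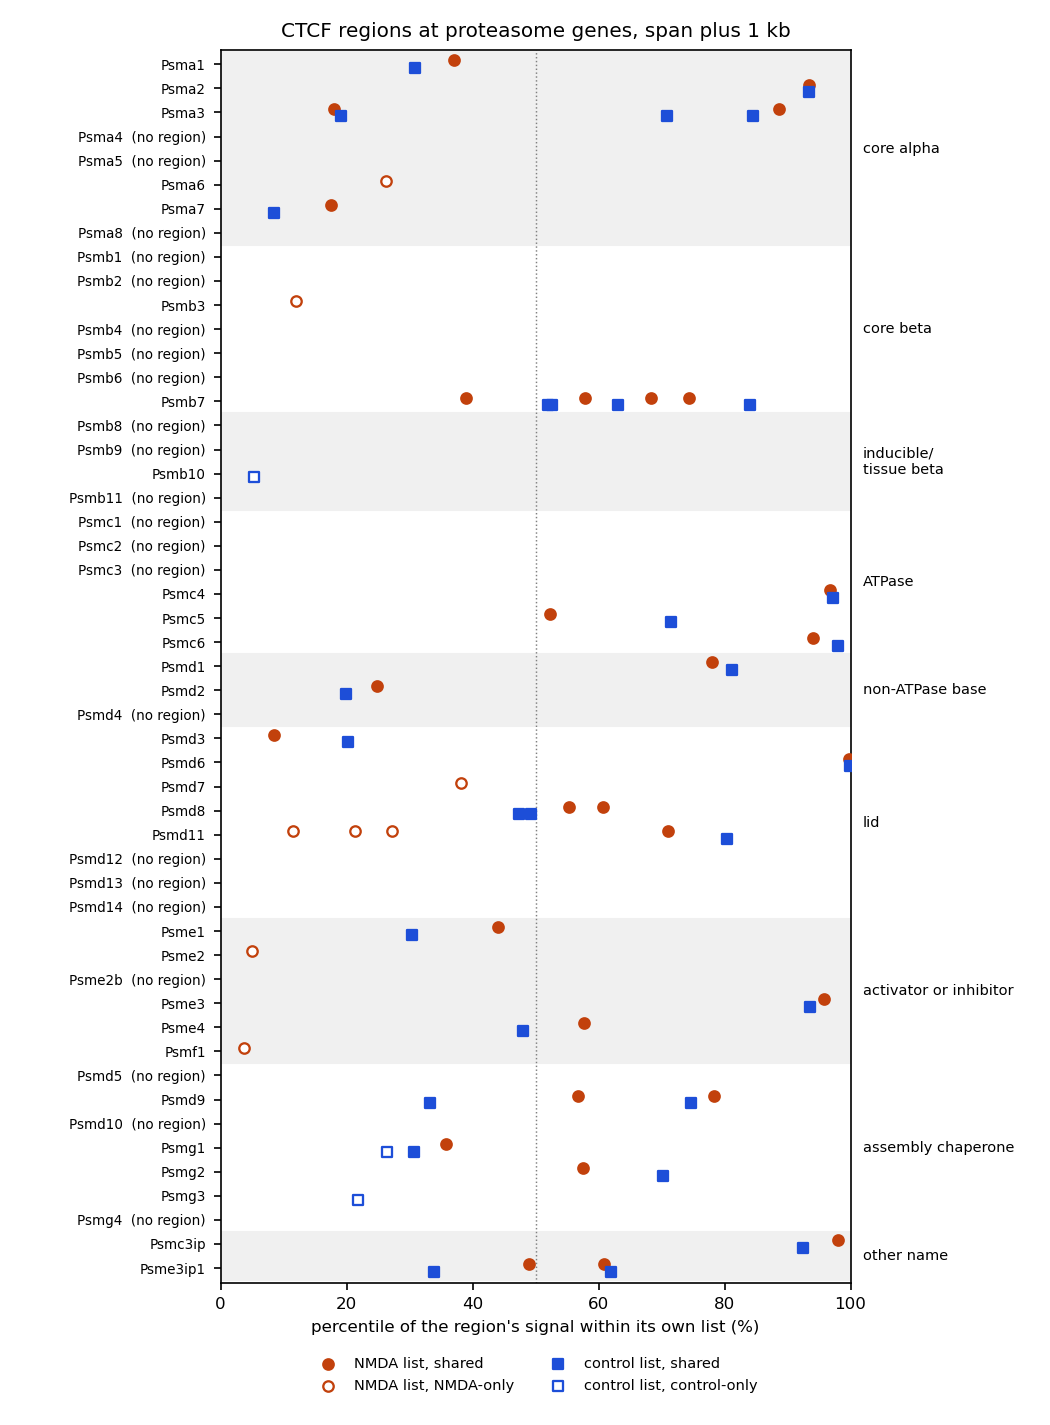
Percentile of each member region within its own list, on the x axis for each gene on the y axis, with NMDA as circles above and control as squares below. Filled marks are shared and open marks list-only regions. Psmd6 stands at 99.8 in both lists, and the list-only regions all lie at 38.1 or lower.

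Over all 51 members the NMDA list had 37 regions, 29 shared and 8 NMDA-only, and the control list 33, 30 shared and 3 control-only. The median percentile of member regions was 55.3 for NMDA and 52.6 for control, against 47.2 and 47.4 for regions of all protein-coding genes. Above the 90th percentile stood 6 member regions for NMDA (16.2%, against 10.5% of gene regions) and 6 for control (18.2%, against 11.0%). They belonged to the same 6 genes, Psmd6, Psmc3ip, Psmc4, Psmc6, Psme3 and Psma2. The 8 NMDA-only member regions had a median percentile of 16.7, and all NMDA-only regions one of 12.3. For the 3 control-only member regions it was 21.8, against 9.51 for all control-only regions. At 8 member regions of each list the summit also lay within 1 kb of an end of a gene outside the set, so the assignment to the proteasome gene is not unique there.

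Shared regions are defined by overlap, which in part fixes how close their summits lie. Of the 29 shared member regions in the NMDA list, 24 had their summit within 60 bp of the paired control summit. The median distance was 17 bp, against 18 bp for all shared regions. The other pairs, at Psma3, Psma7, Psmg2 and Psmd3, were 112 bp to 1303 bp apart. Ranks of shared regions also differed between the lists. NMDA minus control percentile had a median of 3.67 points (SD 10.0, range −19.1 to 23.5, n = 29 regions), with 17 higher and 12 lower in NMDA. The median depended on how ranks were taken: it was 0.562 points with the NMDA list limited to the length of the control list, 0.526 with the first replicate column alone and 1.48 with the second alone. Over all genes the same settings gave −0.15, 2.12 and 1.27 points. For shared regions of all protein-coding genes the median was 1.72 points, and 58.8% were higher in NMDA, compared with 58.6% of the member regions. Higher ranks in NMDA were largest at the weaker Psmd9 region (23.5 points), Psma3 (17.8 points), the weaker Psme3ip1 region (15.1 points) and Psme1 (13.7 points). The Psma3 difference was 4.10 points against the control region that shares its summit. Lower ranks in NMDA were largest at Psmc5 (−19.1 points), the weakest Psmb7 region (−13.7 points), Psmg2 (−12.8 points) and Psmd3 (−11.7 points).

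**Figure D4:**
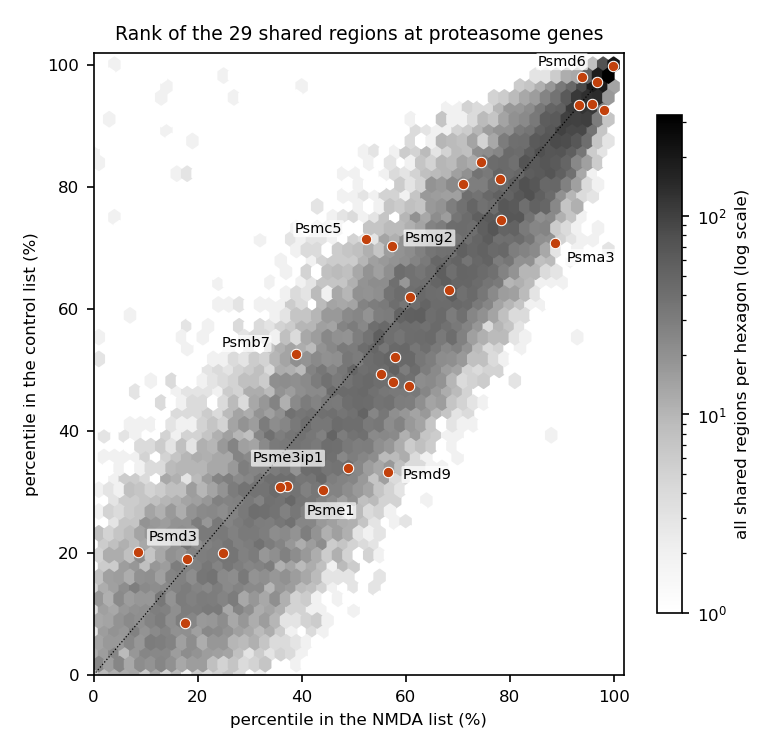
NMDA percentile (x axis) and control percentile (y axis) of the 29 shared member regions (points), over all shared regions (hexagons, log count) with a line of equal rank. The weaker Psmd9 region (56.7 for NMDA, 33.2 for control) lies farthest to the right of the line and Psmc5 (52.3 for NMDA, 71.4 for control) farthest to the left.

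The NMDA list gives each replicate's signal, so the rank differences could be set beside the gap between 2 libraries of 1 condition. The median gap between both replicate percentiles of a shared member region was 10.5 points, against 9.21 points for shared regions of all genes. At 12 of the 29 member regions both NMDA replicates ranked above the control percentile (41.4%, against 38.6% for all genes), and at 7 both ranked below it (24.1%, against 24.0%). At the other 10 the control percentile lay between them. Psmd9's weaker region had replicate percentiles of 69.1 and 48.5, both above its control value of 33.2. Psmc5 had 69.4 and 38.8, both below its control value of 71.4 but 1 of them by little. Psma3 had 94.3 and 74.7, both above 70.8, of which the lower was below the 84.5 of the other control region. The control list has no replicate columns, so its own gap is not known, and these counts are a description and no test.

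**Figure D5:**
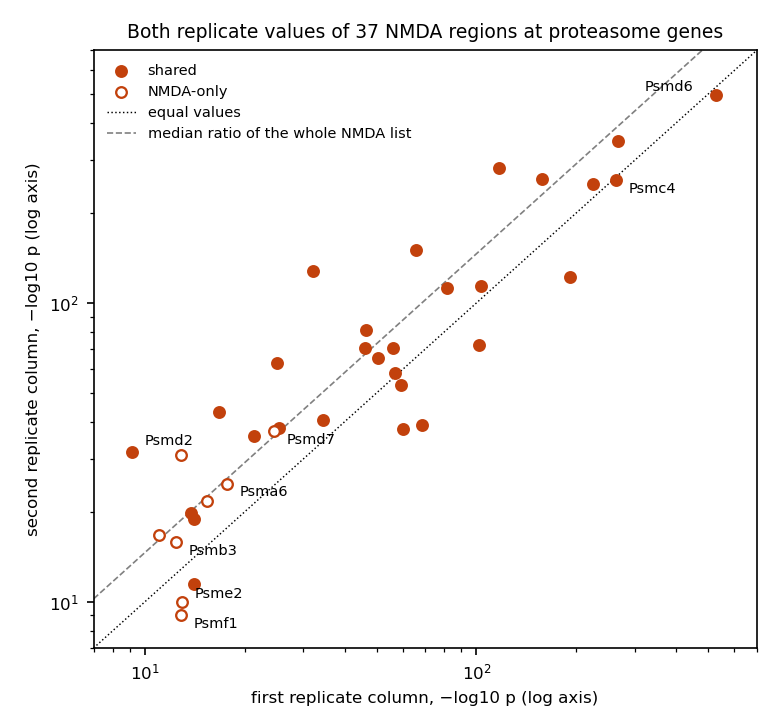
Signal (−log10 p) of each NMDA member region in the first and the second replicate column on log axes, with lines of equal signal and of the median ratio of the list. The first column was higher at 10 of 37 regions, and Psmd2 (9.14 and 31.8) lies far from the line of equal signal.

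The second replicate column was higher than the first at most regions of the NMDA list, with a median ratio of 1.46. At member regions the median ratio was 1.35, and the first column was higher at 10 of 37 (27.0%), against 23.5% of the regions of all genes. These 10 were the regions of Psmd6, Psmc4, Psmc5 and Psmd3, the start regions of Psmd8 and Psmd11, the stronger Psma3 and the weaker Psmd9 region, and the NMDA-only regions of Psme2 and Psmf1. A region of Psmb7, with 32.1 in the first column and 128 in the second, stood far to the other side.

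The 22 members without a region in either list were Psma4, Psma5, Psma8, Psmb1, Psmb2, Psmb4, Psmb5, Psmb6, Psmb8, Psmb9, Psmb11, Psmc1, Psmc2, Psmc3, Psmd4, Psmd5, Psmd10, Psmd12, Psmd13, Psmd14, Psme2b and Psmg4. Their nearest summit in either list was a median of 4944 bp from the span, with 11 closer than 5 kb. Inside the 1 kb limit the farthest summits were those of Psmg3 at 909 bp and Psme1 at 963 bp. Of the members without a region in either list, the nearest outside it were Psmb6 at 1727 bp and Psmc1 at 1735 bp. Psmb3, which had a region in the NMDA list, had a control summit 1056 bp from its span, just outside the limit. A gene without a listed region may still bind CTCF below the authors' threshold, and the depth behind that threshold is unknown.

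Genes that act with the proteasome were taken as a comparison list of 27 genes outside the set. They include genes for ubiquitin, shuttle factors, deubiquitinases and regulators of proteasome amount. They also include Adrm1 and Sem1, subunits whose names the rule does not match. A region in either list lay at 14 of 27 (51.9%, against 55.4% of all genes). The NMDA list had regions at 14 (51.9%, against 52.7%) and the control list at 13 (48.1%, against 51.4%), and 12 had a shared region (44.4%, against 48.3%). NMDA-only regions lay at 4 (14.8%, against 14.0%) and control-only ones at 1 (3.70%, against 9.28%), so these counts were near or below the background. NMDA-only regions lay at Akirin2, a nuclear import factor for proteasomes (percentile 12.1), the protease gene Ddi2 (3.46) and the shuttle factor genes Rad23b (1.90) and Ubqln1 (17.9), and the control-only one at Rad23b (15.4). The highest ranks were at Adrm1, a ubiquitin receptor of the base, with percentile 99.6 for NMDA and 99.9 for control, and Fbxo7, a ubiquitin ligase adaptor that binds Psmf1, with 99.3 and 99.3. Ubqln4, of the shuttle factors, followed with 97.4 and 98.4. Nfe2l1 itself was among the 13 without a region.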

How the data were processed

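CTCF ChIP-seq was made in 2 replicates per condition. The submitters' processing notes name FastQC, Trimmomatic, BWA, SAMtools, MACS2 and the builds mm10 and GRCm38.p6, with versions not given in the sources used here for this report. The authors deposited 1 list of reproducible regions per condition, 36193 for NMDA and 33820 for control. The input libraries were not analysed here. The deposited −log10 p-value was the signal. In 36186 of 36186 NMDA regions both per-replicate columns added up to it (tolerance 0.001), and no source says which replicate each column holds. The deposited score ran from 540 to a ceiling of 1000. The files hold 0 columns of samples outside the series.

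Regions off the assembled chromosomes were left out, 7 for NMDA and 5 for control, and positions were made 1-based. Gene spans were read from RefSeq's GRCm38.p6 gene table, and starts and strands from its promoter table, in which Psma8, Psmb1, Psmb2, Psmb7, Psmc3, Psmd3, Psmd7 and Psmg2 were not matched. Tied signals shared their mean rank. Shared regions were paired by largest overlap.

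The members and lists were chosen with earlier results of these data known. Of 28 names of genes that act with the proteasome, 27 matched. The rule named members with a list-only region, the 3 of highest NMDA rank in each class, those with 3 or more regions, the 4 largest rises and falls in rank, and members without a region. Other members, Nfe2l1, the promoters of Psmc6 and Psmd11 and the wide CTCF form were added after values were seen. The promoters of Psmb10, Psme2 and Psmg3, which the rule included, are not printed. Their summits lie outside those windows by a wide margin, and none of these promoters holds a match to the wide form. The NMDA summits of Psmc3ip and Psmf1, which are printed, also lie outside their windows, by less. Alternatives changed the overlap rule, window, score minimum, list length, names and signal column. Placement was tested on simulated data, where 1235 of 1235 genes with planted regions among 2000 were recovered. Python 3.11.15, pandas 2.3.3, numpy 2.4.6, scipy 1.17.1 and matplotlib 3.10.9 were used.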

Additional observations from a re-analysis of the deposited data

How the results depend on the processing

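Of 74 values recomputed for 9 results under 10 other settings, 52 stayed within a fixed tolerance and 22 moved beyond it. Some of the 52 could not move. The overlap rules do not enter the counts of genes with a region, and limiting the NMDA list does not enter the control count. The names setting leaves the core, ATPase and lid genes as they were. The 52 is therefore no measure of stability. For counts the tolerance was 1.5 times the main count, so that 38 members in the NMDA list with 5 kb, against 27, count as within it. For the median rank difference it was 0.674 points, the SD between both replicate columns. The median rank difference, the only result that can take either sign, stayed positive, with 0.526 points as its lowest value. Over all genes it was −0.15 points with the NMDA list limited to the control list's length. With the gene span alone, regions lay at 16 members in the NMDA list (31.4%, against 45.6% of all genes) and 11 in the control list (21.6%, against 44.3%), 12 had a shared region (23.5%, against 41.3%) and 1 a control-only region (1.96%, against 8.19%), 1 ATPase gene and 2 lid genes had a region, and the median rank difference was 4.92 points. With 5 kb either side, 35 members had a shared region (68.6%, against 57.1%) and 5 a control-only one (9.80%, against 10.9%), 15 core and 5 ATPase genes had a region, and the difference was 4.99 points. Control-only regions lay at 6 members with a reciprocal overlap of 50% (11.8%, against 13.3%, with a difference of 4.92 points) and at 1 with a score of at least 830 (1.96%, against 4.82%, with 4.95 points). Counting a region as shared only when summits were at most 100 bp apart gave NMDA-only regions at 10 members (19.6%, against 19.7%) and control-only ones at 7 (13.7%, against 15.6%). The median difference was 0.562 points with the NMDA list limited to the control list's length, 2.97 with names that end after the number, 0.526 with the first replicate column alone and 1.48 with the second alone. The cause of these moves was not tested, apart from the window itself. Depth is unknown, which limits what absence from a list shows. No paired analysis was possible because each condition is deposited as 1 list over both replicates, and the region lists could not be rebuilt without a replicate. Leaving a replicate out was possible only for the signal of the NMDA regions, as the values from each column alone show.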

Other observations

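The 6 annotated proteasome pseudogenes, Psma5-ps, Psmb5-ps, Psmb6-ps, Psmb6-ps2, Psmb7-ps1 and Psmb7-ps2, had 0 regions in either list.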
